A study of Rattus norvegicus with 20 samples.

Results

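Toll-like receptors of the cell surface and the proteins that hand them their ligands were followed in rat blood before and after an overdose of acetaminophen (APAP). The genes were Tlr2, Tlr4, Tlr5, Tlr6, Cd14, Ly96, Myd88 and Irak3, and their probe sets were chosen by annotation, as every probe set with exactly 1 gene symbol equal to one of these names. This gave 6 probe sets for 6 of the 8 genes, out of 31042 probe sets on the array and 20826 with 1 symbol. Tlr2, Tlr4, Cd14, Ly96, Myd88 and Irak3 had 1 probe set each, and no probe set was matched to Tlr5 or Tlr6. The list itself was drawn up with measured values of these arrays already known. Which values weighed in was not recorded, so every comparison below counts as used in the choice, and the adjusted p-values give each probe set's place in a fit over all probe sets, not support for the group.

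Blood came from male Wistar rats given 1200 mg/kg APAP by mouth after a fast of 12 h. The rats were ranked by serum alanine aminotransferase 24 h after APAP, a liver enzyme that leaks into serum when hepatocytes die. Out of a larger dosed group, the 5 highest formed the susceptible sub-group and the 5 lowest the resistant sub-group. The sub-groups were thus defined by injury at the time of the postdose blood, not before dosing. The 20 arrays (Affymetrix Rat Genome) fell into 4 groups of 5, susceptible postdose (24 h after APAP), susceptible predose, resistant postdose and resistant predose, where predose blood was drawn 1 week earlier from the then untreated animals. The labels name the retro-orbital plexus as the place of bleeding, and the study's methods name the inferior vena cava for the postdose sample. No vehicle-treated rats were on these arrays, so that postdose minus predose also holds the fast, the site of bleeding and the week between samples, and these cannot be told apart from APAP.

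Tlr4 is the receptor for lipopolysaccharide (LPS) of gram-negative bacteria. Cd14 takes up LPS at the cell surface and passes it to Ly96 (MD-2), the small protein bound to the outer part of Tlr4 that holds the lipid. Tlr2 recognises bacterial lipopeptides, in pairs with Tlr1 or Tlr6, and Tlr5 recognises flagellin. Myd88 is the adaptor that links these receptors to the Irak kinases and so to NF-kB, and Irak3 (IRAK-M) is the family member that holds this signal back in monocytes and macrophages. In blood, neutrophils and monocytes carry most of these proteins, and Tlr4 is also known for its response to molecules released by dying cells.

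After APAP, Tlr4 was 3.97-fold higher in susceptible rats and at 0.950 of its predose level in resistant rats, although the difference between these changes missed the threshold. Myd88 was higher in both sub-groups, 1.79-fold in susceptible and 1.56-fold in resistant rats. With each array scaled to its median, the other 4 genes (Cd14, Irak3, Ly96 and Tlr2) passed the threshold in no comparison. Their changes in susceptible rats were -0.55 to 0.48 on the log2 scale. With quantile normalization, Irak3 passed in susceptible rats.

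The stretches around the transcription start are shown for the 2 genes that changed, Tlr4 and Myd88, and for Tlr2, the other Toll-like receptor measured. They run from 250 bases before to 50 after the start, read 5′ to 3′ on the strand of the gene, from RefSeq (GRCr8), where 7 of the 8 genes (all but Ly96) had an entry. Capitals mark the letters searched for. In Tlr4 (chr5:85160997-85161296, plus strand) they are the core of a site for PU.1, a myeloid transcription factor, GAGGAA read on the opposite strand, at 67 and 55 bases before the start. In Myd88 (chr8:127956181-127956480, minus strand) they are a gamma-activated site, TTCNNNGAA, from 22 bases before the start, and a core of the interferon response element, GAAA on both sides of any 2 letters, from 16 bases before, which overlap. In Tlr2 (chr2:171504508-171504807, minus strand) they are overlapping matches to the NF-kB consensus from 206 bases before the start.
Tlr4: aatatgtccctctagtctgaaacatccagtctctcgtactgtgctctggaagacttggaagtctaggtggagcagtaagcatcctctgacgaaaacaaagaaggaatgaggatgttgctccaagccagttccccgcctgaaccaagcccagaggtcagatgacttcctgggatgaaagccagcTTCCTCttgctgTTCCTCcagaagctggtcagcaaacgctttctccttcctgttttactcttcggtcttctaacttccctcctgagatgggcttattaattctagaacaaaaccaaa
Myd88: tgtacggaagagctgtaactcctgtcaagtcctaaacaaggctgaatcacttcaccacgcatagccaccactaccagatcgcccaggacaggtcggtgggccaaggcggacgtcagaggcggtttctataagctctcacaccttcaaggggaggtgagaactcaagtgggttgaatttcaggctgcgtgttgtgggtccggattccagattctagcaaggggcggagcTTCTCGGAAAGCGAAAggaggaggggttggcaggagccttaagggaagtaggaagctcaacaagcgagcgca
Tlr2: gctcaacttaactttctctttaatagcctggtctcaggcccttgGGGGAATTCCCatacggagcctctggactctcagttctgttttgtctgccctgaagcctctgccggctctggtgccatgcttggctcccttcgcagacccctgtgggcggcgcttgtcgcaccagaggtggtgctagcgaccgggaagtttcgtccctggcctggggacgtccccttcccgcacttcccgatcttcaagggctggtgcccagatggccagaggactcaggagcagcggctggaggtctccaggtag
Both strands were searched. Over 33469 promoters of the same length, 27.6% held GAGGAA, 3.92% the interferon response core, 8.87% the gamma-activated site and 4.18% the NF-kB consensus. Of the other genes, Cd14 held 2 GAGGAA cores and Tlr6 held 1, and Irak3 held 1 NF-kB match. These are matches of letters and were not tied to binding in these samples.

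Tlr4 gave signals of 12372, 8556, 22923, 9827 and 9538 on susceptible postdose arrays 1 to 5, on a scale where each array's median probe set is 1000. On susceptible predose arrays 1 to 5 they were 4927, 3722, 2179, 2027 and 2832. Every postdose array was above every predose array, and postdose array 3 was the highest of the 20. The log2 signal averaged 13.52 ± 0.57 postdose and 11.53 ± 0.54 predose (SD, n = 5 each), a difference of 1.99 (SE 0.30; limma, adjusted p = 5.2e-04). The change was larger than that of 99.5% of the 30747 probe sets tested. It stayed past the threshold under each alternative run, and was 1.75 without postdose array 3.

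In resistant rats, Tlr4 signals were 4000.3, 3352, 3143, 2387 and 3299 on postdose arrays 1 to 5, against 2258, 5497, 3678, 3441 and 2730 on predose arrays 1 to 5. The groups overlapped throughout. The log2 difference was -0.07 (95% interval -0.70 to 0.55, adjusted p = 0.943), and its sign turned when postdose array 4 or predose array 2 was left out. The susceptible change exceeded the resistant change by 2.06 (SE 0.42; limma adjusted p = 0.197), so that the difference between sub-groups in the change did not pass the threshold over all probe sets. It passed only when probe sets of low signal were left out more strictly (adjusted p = 0.0461).

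Compared directly after dosing, Tlr4 was 3.69-fold higher in susceptible than in resistant rats (log2 difference 1.88, SE 0.30, limma adjusted p = 0.0196), and the lowest susceptible array (8556) lay above the highest resistant array (4000.3). This comparison shares the susceptible postdose arrays with the change in susceptible rats. The share of all probe sets with no overlap between these groups was not counted. The call was lost when single arrays were left out. The adjusted p was 0.0561 without susceptible postdose array 1, 0.0529 without resistant postdose array 2 and 0.0585 without resistant postdose array 4, and 0.217 with the methods' test after adjustment. Before dosing, the sub-groups overlapped and differed by -0.18 (susceptible minus resistant, 95% interval -0.87 to 0.51, adjusted p = 0.9998).

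**Figure D1:**
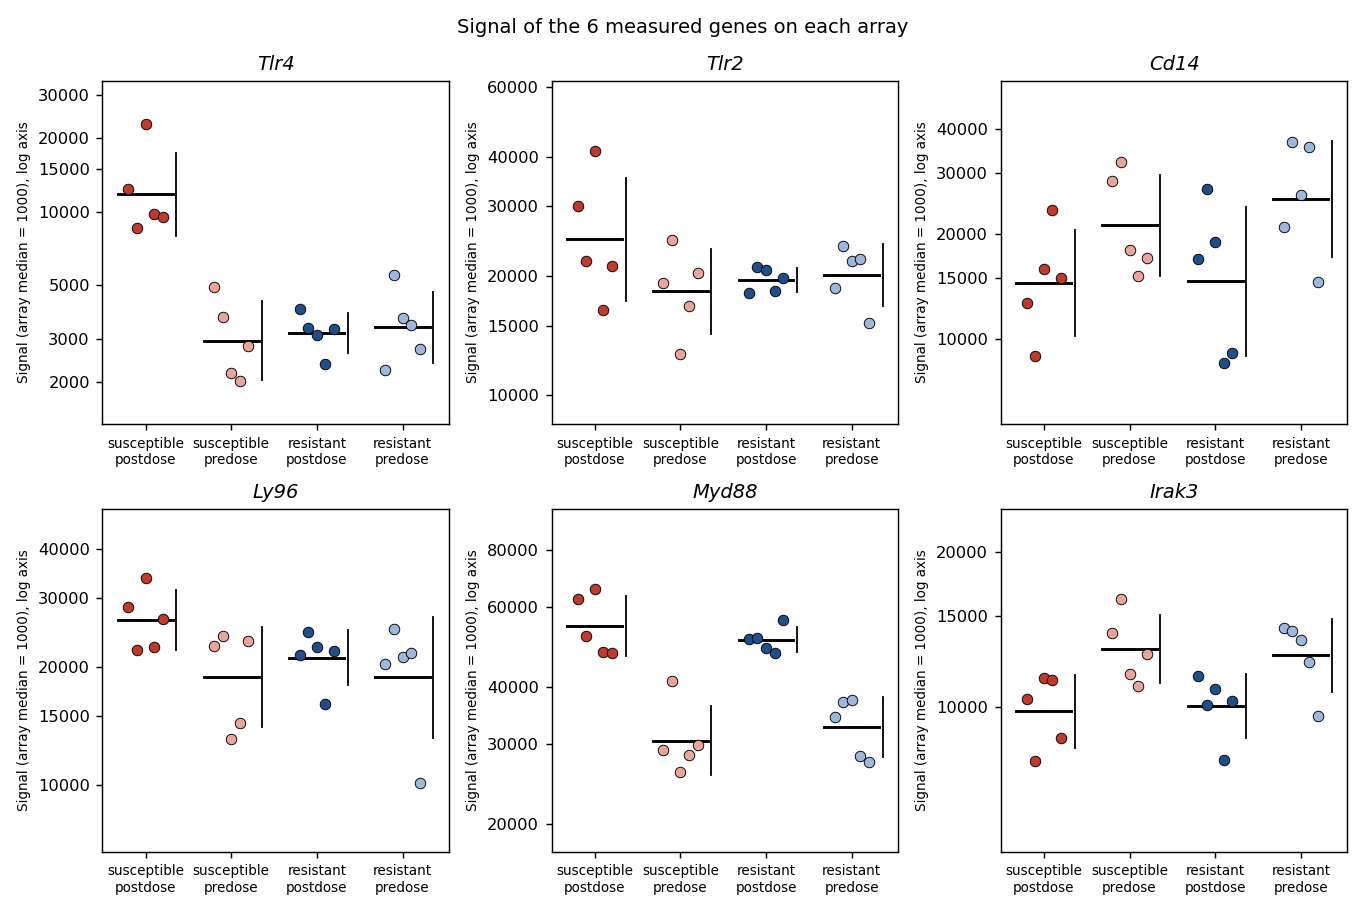
Signal of the 6 measured genes on each of the 20 arrays, with the array median set to 1000 and a log axis. Points are arrays (replicates 1 to 5 from left to right in a group), bars are means of log2 values and vertical lines 1 SD. The 5 susceptible postdose arrays lie above all 15 others for Tlr4, whereas for Myd88 the postdose arrays of both sub-groups lie above the predose arrays. How many of all probe sets separate the 5 arrays from the 15 others was not counted.

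Myd88 signals were 62447, 51805, 65889, 47820 and 47447 on susceptible postdose arrays 1 to 5, against 29008, 41218, 26034, 28414 and 29857 on susceptible predose arrays 1 to 5. On resistant postdose arrays they were 51079, 51321, 48769.8, 47631 and 56140, and on resistant predose arrays 34311, 37174, 37539.9, 28137 and 27383. In each sub-group the lowest postdose array was above the highest predose array. On the log2 scale Myd88 gained 0.84 in susceptible rats (SE 0.14, limma adjusted p = 0.00121) and 0.64 in resistant rats (SE 0.14, adjusted p = 0.00974). The methods' test after adjustment left the resistant change just outside the threshold (adjusted p = 0.0543 against limma's 0.00974). The changes differed by 0.20 (95% interval -0.21 to 0.61, adjusted p = 0.903), and after dosing the sub-groups differed by 0.10 (95% interval -0.19 to 0.39). The resistant postdose arrays lay close together (SD 0.09), against an SD of 0.22 in the susceptible postdose arrays.

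Tlr2 signals were 29972, 21767, 41359, 16400.5 and 21169 on susceptible postdose arrays 1 to 5, against 19229, 24596, 12709, 16830 and 20397 on susceptible predose arrays. Only postdose arrays 1 and 3 were above all predose arrays. The change of 0.44 (SE 0.22, adjusted p = 0.285) did not pass the threshold, and was 0.10 without arrays 1 and 3. In resistant rats Tlr2 lay between 18136 and 21079 postdose and between 15219.6 and 23881 predose, a difference of -0.04 (95% interval -0.49 to 0.42). The spread within groups was widest in the susceptible postdose arrays (SD 0.52) and narrowest in the resistant postdose arrays (SD 0.10).

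Ly96, the partner of Tlr4 in binding LPS, gave 28411, 22053, 33840.1, 22506 and 26524 on susceptible postdose arrays 1 to 5, against 22554, 23997, 13071, 14403 and 23299 on susceptible predose arrays. Postdose arrays 1, 3 and 5 were above all predose arrays. The change of 0.48 (95% interval -0.01 to 0.98, adjusted p = 0.275) did not pass. In resistant rats the signals spanned 16050.1 to 24539.6 postdose and 10096 to 25013 predose, with predose array 5 far below the others of its group, and the change was 0.17 (adjusted p = 0.804).

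Cd14 was the measured gene with the lowest change after dosing in both sub-groups. Its signals were 12678, 8951, 15910.2, 23416 and 14992 on susceptible postdose arrays 1 to 5, against 28397, 32176, 17985, 15129 and 17086 on susceptible predose arrays. Of the postdose arrays, 1, 2 and 5 were below all predose arrays and arrays 3 and 4 were not. The log2 change was -0.55 in susceptible rats (95% interval -1.29 to 0.19, adjusted p = 0.442). In resistant rats, with 8549.8 to 26871 postdose against 14518 to 36608 predose, it was -0.78 (95% interval -1.52 to -0.05, adjusted p = 0.255). Neither passed the threshold, and the SDs of 0.48 to 0.71 within groups were among the largest of the 6 genes.

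Irak3, the brake on the pathway, gave 10348, 7833, 11367, 11271 and 8678 on susceptible postdose arrays 1 to 5, against 13941, 16202, 11597, 10999 and 12678 on susceptible predose arrays. Only predose array 4 was below any postdose array. The change was -0.40 (SE 0.15, limma adjusted p = 0.129) in susceptible rats. It was -0.33 (SE 0.15, adjusted p = 0.266) in resistant rats, where signals were 7888 to 11477 postdose and 9587 to 14218 predose. With quantile normalization the change in susceptible rats was -0.44 and passed (adjusted p = 0.0199).

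**Figure D2:**
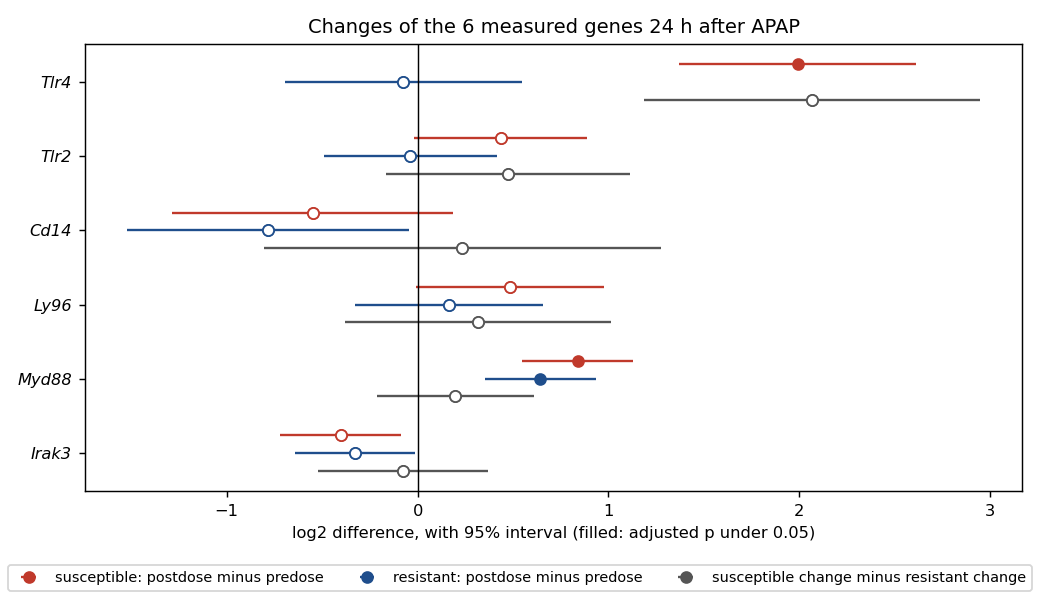
Log2 differences of the 6 measured genes with unadjusted 95% intervals, as postdose minus predose in susceptible rats, postdose minus predose in resistant rats, and the susceptible change minus the resistant change. Filled points passed the adjusted threshold over all probe sets, which were Tlr4 (1.99) and Myd88 (0.84) in susceptible rats and Myd88 (0.64) in resistant rats.

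Of the 6 probe sets, 2 passed an adjusted p of 0.05 in susceptible rats, both higher, where 6.66% of all 30747 probe sets tested did so (3.86% higher and 2.80% lower). In resistant rats 1 of 6 passed, where 5.11% of all probe sets did (2.51% higher and 2.60% lower). Non-overlap with all postdose arrays above all predose arrays was seen for 2 of 6 probe sets in susceptible and 1 of 6 in resistant rats, against 3.93% and 3.24% of all probe sets. These contrasts count as used in choosing the genes, and nothing was read from the shares. The median change of the 6 was 0.46 in susceptible and -0.06 in resistant rats, beside medians over all probe sets of 0.01 and -0.01. The susceptible median was 0.21 without the 2 arrays of highest Alb signal. The resistant median was -0.14, 0.06, -0.02, -0.03 and -0.14 when resistant predose arrays 1 to 5 were left out in turn and 0.01 without resistant postdose array 4, so that its sign rested on single arrays.

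For the difference between the changes, 0 of 6 probe sets passed, as did 0% of all probe sets in the limma fit. At an unadjusted p under 0.05 these were 1 of 6 (Tlr4) and 2122 of 30747, and with the stricter filter 15 probe sets passed, Tlr4 among them. In the postdose comparison 1 of 6 passed (Tlr4), where 0.143% of all probe sets did. Before dosing 0 of 6 passed, and 0 of 6 at an unadjusted p under 0.05, where 0.00329% of 30416 probe sets passed in the limma fit and 1138 did so unadjusted. The predose differences of the 6 genes ran from -0.25 (Cd14) to 0.04 (Irak3), all with intervals that held 0.

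Correlations between the 6 genes were taken within groups and over all arrays. After each group's mean was taken off, all 15 pairs were positively correlated over the 20 arrays, between 0.22 (Cd14 with Myd88) and 0.78 (Myd88 with Tlr2), and Tlr4 reached 0.73 with Tlr2 and 0.69 with Ly96. Without taking off the group means, Cd14 and Irak3 (r = 0.78) were negatively correlated with Myd88 (-0.39 for each), and Tlr4 with Myd88, Ly96 and Tlr2 gave 0.64, 0.70 and 0.70. All pairs share the arrays, so these values are a description with no test. Pairs of other genes were not computed beside them, so they are not read as particular to these 6 genes. Susceptible postdose array 3 had the highest and array 1 the second highest signal of that group for Tlr4, Tlr2, Ly96 and Myd88 alike.

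Among 11988 probe sets of other genes, those closest to Tlr4 over the 20 arrays were C1h19orf12 (r = 0.97), Irgm2 (0.96), an interferon-induced GTPase, and Morc3 (0.95). Closest to Myd88 were Dgat2 and Cmtm6 (0.98 each) and Cxcr2 (0.96), the neutrophil chemokine receptor. Ly96 and Tlr2 both had Fcgr1a, the high-affinity IgG receptor, as their closest gene (0.94 and 0.85). It was followed by Aif1 (0.93) and Grn (0.92) for Ly96, and by Mier3 (0.84) and Ctsc (0.83), the protease that activates neutrophil serine proteases, for Tlr2. Closest to Cd14 were Tm2d1 (0.92), Tnfrsf21 (0.90) and Anxa4 (0.89). Closest to Irak3 were Blvra (0.93), which encodes biliverdin reductase, Ing2 (0.93) and Pold1 (0.92).

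The rest of the pathway was described from lists of genes with 1 probe set each. Of 16 other receptors, co-receptors and chaperones, 10 were measured. In susceptible rats Tlr8, an endosomal receptor for RNA, fell by 1.004 (SE 0.26, limma adjusted p = 0.0239), with 5900.1 to 11932 postdose against 9388 to 19262 predose, and 0 rose. In resistant rats 0 of 10 passed in the limma fit, and Tlr8 changed by -0.27. Tlr1, the partner of Tlr2, changed by 0.64 (adjusted p = 0.0606) in susceptible and 0.46 in resistant rats. The list's median was -0.35 in susceptible and -0.24 in resistant rats.

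Of 18 adaptors and kinases, 16 were measured. Tirap, the adaptor that brings Myd88 to Tlr2 and Tlr4 (0.72, adjusted p = 0.00768), and Ticam1 (TRIF), the adaptor of the Myd88-independent branch (0.94, adjusted p = 0.00411), rose in susceptible rats and 0 fell. In resistant rats Ticam1 rose (0.69, adjusted p = 0.0367), Traf6, the ubiquitin ligase below Myd88, fell by 0.65 (adjusted p = 0.0181), and Tirap changed by 0.41 (adjusted p = 0.153). Of the other 3 Traf6 probe sets, 2 passed in resistant rats and 1 in susceptible rats (-0.84, adjusted p = 0.00497), all lower, and the dimmer Ticam1 probe set passed in neither. The kinases Irak1, Irak2 and Irak4 passed in neither sub-group. Over the list the median was -0.03 in susceptible and -0.04 in resistant rats.

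Of the 14 inhibitors, all measured, 4 rose in susceptible rats and 1 fell. Socs1, the inhibitor of cytokine signalling, rose by 2.37 (SE 0.58, adjusted p = 0.0186), with 910.0 to 2854 postdose against 97.5 to 889 predose. The susceptible predose group was widely spread (SD 1.47), and resistant rats had 596 to 1575 predose and 269 to 1224 postdose. After dosing the sub-groups differed by 1.25 in Socs1, which did not pass (limma adjusted p = 0.528). The dimmer Socs1 probe set did not pass in susceptible rats (0.78, adjusted p = 0.565). Trafd1 (1.12), and the deubiquitinases Cyld (0.92) and Otud7b (0.84), rose as well, both deubiquitinases with a further probe set that passed, and Tnfaip3 (A20) fell by 0.75 (adjusted p = 0.0324). In resistant rats 0 rose, Tnfaip3 fell by 0.94 (adjusted p = 0.00998) and Atf3, a transcriptional repressor of Toll-like receptor targets, fell by 1.05 (adjusted p = 0.00667). Atf3 was also the single list gene of the inhibitors that differed after dosing, higher in susceptible rats by 1.26 (adjusted p = 0.0212). The median over the 14 was 0.34 in susceptible and -0.19 in resistant rats.

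Of 16 target genes, 15 were measured, and 5 rose and 1 fell in susceptible rats. Il1b rose by 1.69 (SE 0.23, adjusted p = 2.42e-04), with 205116 to 287295 postdose against 54057 to 124138 predose. Ptgs2 (1.49), which encodes cyclooxygenase-2, the chemokines Cxcl2 (1.46) and Ccl4 (1.13), and Sod2 (0.59), the mitochondrial superoxide dismutase, also rose, whereas Cd83 fell by 1.86 (adjusted p = 1.09e-04). In resistant rats Il1b (0.98, adjusted p = 0.0166) and Ccl4 (1.28, adjusted p = 0.0165) rose, and Cd83 (-2.13) and Nfkbiz (-0.80) fell. The dimmer Nfkbiz probe set did not pass in resistant rats (0.12, limma adjusted p = 0.958). Tnf changed by -0.38 and -0.40 in susceptible and resistant rats, and neither passed. The list's median was 0.51 in susceptible and 0.02 in resistant rats. No gene of these 4 lists passed for the difference between the changes or in the predose comparison in the limma fit, and after dosing only Atf3 did.

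**Figure D3:**
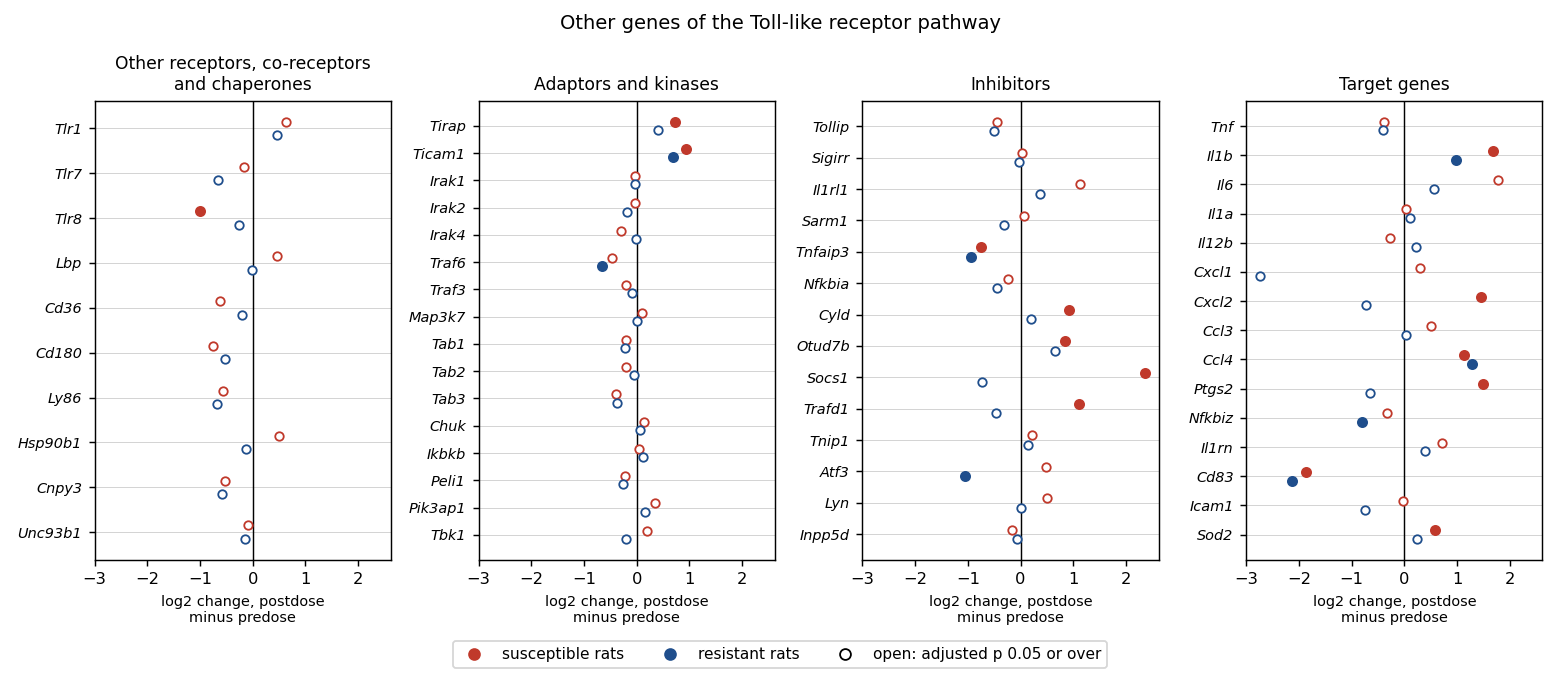
Log2 change after APAP (postdose minus predose) of the measured genes of 4 pathway lists, with 1 probe set per gene, in susceptible and resistant rats. Filled points passed the adjusted threshold, such as Socs1 (2.37) and Il1b (1.69) in susceptible rats, and Cd83 in both sub-groups (-1.86 and -2.13).

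Markers of some blood cell types also changed after dosing. Of 10 measured neutrophil markers, 5 rose in susceptible rats (Csf3r, Cxcr2, S100a8, S100a9 and Padi4) and 4 in resistant rats (all but S100a9). The others did not pass. Among them in susceptible rats, Camp (-0.26) and Lcn2 (-1.03) were lower, and Cxcr1, Mmp8 and Mmp9 higher. In resistant rats Camp (-0.89) and Mmp8 (-0.10) were lower, and Cxcr1, Mmp9, Lcn2 and S100a9 higher. The summed signal of the 10 markers was 847671 to 1228147 in susceptible postdose arrays against 500091 to 670034 predose. For resistant rats it was 827259 to 1027322 postdose against 507624 to 715193 predose. The neutrophil sum was thus higher after dosing in both sub-groups, as Myd88 was. Over the 20 arrays the sum and Myd88 were correlated at r = 0.92 (0.62 within groups), and the sum and Tlr4 at 0.61 (0.20 within groups). In bulk blood, more cells of a type and more RNA per cell cannot be told apart, and the part of neutrophil share in the Myd88 and Tlr4 values was not tested. Most of this sum was the signal of S100a8 and S100a9, at 238584 to 371914 and 461831 to 617007 in susceptible postdose arrays.

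Of 10 measured monocyte markers, 1 rose in susceptible rats (Fcgr1a, 0.98) and 3 fell (Csf1r, Cx3cr1 and Clec4a3, by 0.89, 0.78 and 1.55), and 0 passed in resistant rats in the limma fit. Their sum was 537407 to 734895 postdose against 575079 to 665882 predose in susceptible rats, and 475625 to 690583 against 450419 to 689011 in resistant rats. Lyz2 made up most of the sum, at 324891 to 449304 in susceptible postdose arrays against 306636 to 386560 predose, and did not pass, so the sum says little of the 3 markers that fell. Within groups all 6 genes were positively correlated with it, from 0.25 (Tlr2) and 0.37 (Tlr4) over 0.43 (Myd88), 0.56 (Cd14) and 0.64 (Ly96) to 0.79 (Irak3). The part of monocyte share in these values was not tested.

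Hepatocyte markers set 2 arrays apart. The sum of the 7 measured markers was 18268, 4065, 27222, 3316 and 6840.5 on susceptible postdose arrays 1 to 5, against 2055 to 3706 in susceptible predose arrays, 2218 to 3322 in resistant postdose arrays and 2392 to 4152 in resistant predose arrays. Alb and Ahsg rose in susceptible rats (by 3.17 and 2.62), the other 5 markers did not pass, and 0 of 7 passed in resistant rats. Among those 5 in susceptible rats, Ttr, Serpina1 (1.28) and Apoc3 (0.13) were higher, and Apoa1 (-0.19) and Fgb (-0.83) lower. The dimmer Alb probe set did not pass in susceptible rats (1.95, limma adjusted p = 0.219). On the brighter probe set the Alb signal was 9731 on array 1 and 15297 on array 3. Both arrays were also the highest for Tlr4. Without them the Tlr4 change in susceptible rats was 1.65 (limma adjusted p = 0.00794) and that of Myd88 was 0.68 (adjusted p = 0.0249), both past the threshold, while the postdose difference of Tlr4 between sub-groups was 1.54 and no longer passed (adjusted p = 0.165). This exclusion was added after the data had been seen. On the other 3 susceptible postdose arrays, 2, 4 and 5, the Alb signal was 1082, 619 and 3239, and Tlr4 was 8556, 9827 and 9538. These Alb signals were above the 249.8 to 423 of the susceptible predose arrays. The 619 of array 4 lay within the 152.9 to 681 of the resistant predose arrays. The part of hepatocyte RNA in these values was not tested.

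**Figure D4:**
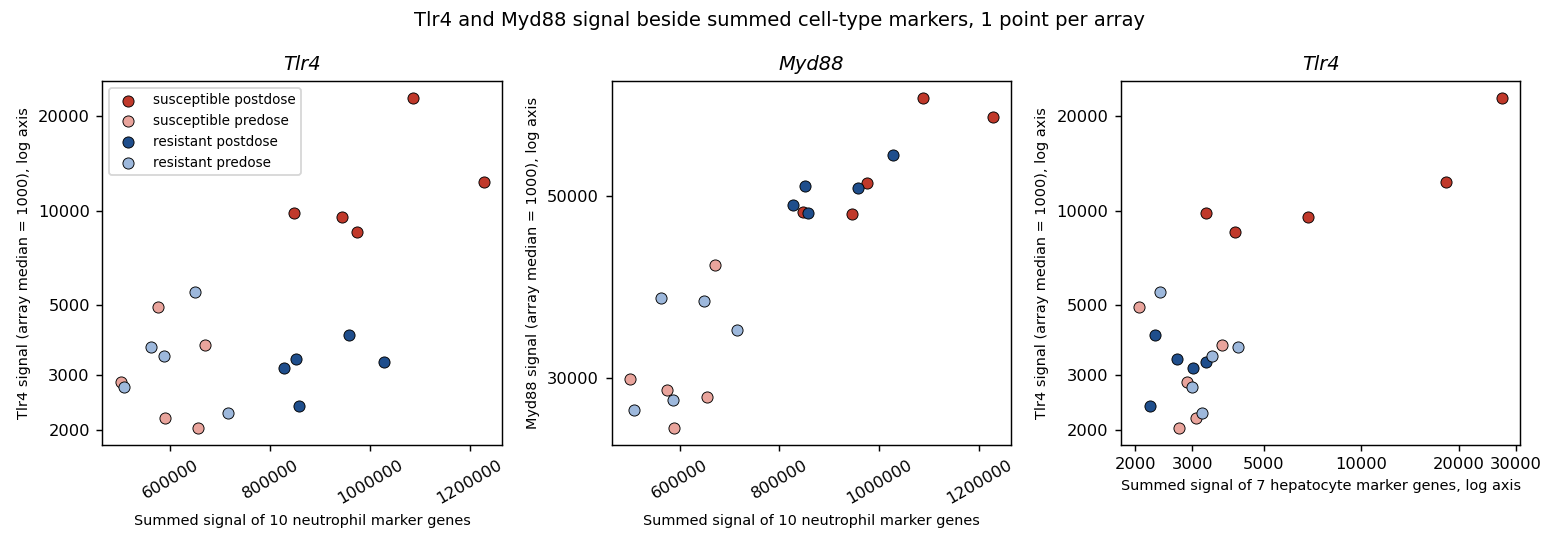
Signal of Tlr4 and Myd88 on each array (vertical log axes, array median 1000) beside the summed signal of 10 neutrophil markers, and Tlr4 beside the summed signal of 7 hepatocyte markers (horizontal log axis). The resistant postdose arrays have neutrophil sums of 827259 to 1027322 and Tlr4 signals of 2387 to 4000.3, and the 2 susceptible postdose arrays with hepatocyte sums of 18268 and 27222 are the highest for Tlr4.

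Of 9 natural killer cell markers, 7 rose in susceptible and 9 in resistant rats, whereas 3 of 5 B cell markers fell in susceptible and 1 of 5 in resistant rats. Of 11 T cell markers, 1 fell in susceptible (Cd4, -0.67) and 1 in resistant rats (Cd28, -0.73), and 0 rose. No platelet or erythroid marker passed in either sub-group. The erythroid sum was 461993 to 911775 over the 20 arrays, in blood whose red cells had been lysed. All 6 genes were well above the negative-control probe sets, whose median was 12.9 to 211 per array, against 2027 for the lowest signal of a measured gene. The number of arrays, 5 per group, sets the precision. The labels number the samples within groups but do not name the animals, so the p-values measure the spread between samples, and each change is given without pairing.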

How the data were processed

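RNA from EDTA blood with lysed red cells was measured on 20 arrays, 5 per group, with groups taken from the sample labels. The authors deposited 1 linear intensity per probe set and array, and the software behind these values is not given in the sources used here. Array medians of 187 to 223 show that the deposited values were not yet at the median of 1000 named in the study's methods. The 57 control probe sets were dropped, the other 31042 were scaled on each array to that median, and log2 was taken with no floor on the values. Probe sets below 100 on all arrays were left out, which left 30747, or 30416 for the predose comparison on 10 arrays.

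R 4.3.3 with limma 3.58.1 fitted the 4 groups, or the 2 predose groups for the predose comparison (lmFit, then eBayes), at a Benjamini-Hochberg adjusted p under 0.05. Intervals are unadjusted. A fold is 2 to the power of a log2 difference. Simulated data with known changes were used to test the fit. Symbols came from the platform annotation, in which 436 probe sets carried several symbols and 9780 none.

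The members and lists were chosen with earlier results of these data known. Named were the members, the list genes past the threshold in either postdose change (at most 6 per list, of the largest change), the 3 genes most like each member by Pearson's r among those of mean signal at or above 1000, and the cell-type markers, where a gene with several probe sets was read from the brightest. Irak1, Irak2, Irak4, Tlr1 and Tnf, and Sod2 beyond the limit of 6 in its list, were named outside this rule, after their values had been seen. Tried as well were the values as deposited, quantile normalization, a stricter filter (a group mean of 1000) and none, 1 probe set per gene, a replicate block, only the arrays compared or all 20, the methods' t-test after adjustment, leaving out each array, and leaving out the 2 arrays of highest Alb signal, a choice made with the data in view. Plots are from matplotlib 3.10.9.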

Additional observations from a re-analysis of the deposited data

Results flagged for a closer look

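Resistant predose array 5 gave a Ly96 signal of 10096, far below the 20297 to 25013 of the other 4 arrays of its group, and the gap took up 0.770 of the group's log2 range. It was 1 of 24 groups of values looked at for a sample that stands apart, and chance flags about 1 in 20 groups. The same array was also the lowest of its group for Tlr2 (15219.6), Cd14 (14518), Myd88 (27383) and Irak3 (9587), but not for Tlr4 (2730). Without it the Ly96 change in resistant rats was -0.06 in place of 0.17, and neither passed the threshold.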

How the results depend on the processing

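The calls of Tlr4 and Myd88 in susceptible rats held under every alternative run. With the methods' t-test after adjustment, 578 of all probe sets were called in susceptible and 729 in resistant rats in place of 2048 and 1570, 0 in either comparison of sub-groups, and of the 6 genes 0 in resistant rats and 0 after dosing. With only the arrays compared, 910 and 968 were called. With the stricter filter, 2435 were called in resistant rats, 15 for the difference between changes (1 of the 6 genes, Tlr4), 241 after dosing and 0 before dosing. With 1 probe set per gene, 958 were called in resistant rats and 0 before dosing, where all 20 arrays also gave 0. Quantile normalization called 73 after dosing in place of 44, and turned the sign of Tlr2 in resistant rats (0.0018) and of Myd88 after dosing (-0.0368). Without the 2 arrays of highest Alb signal, 730 were called in susceptible rats and 5 after dosing, where 0 of the 6 genes passed, Cd14 was 0.00076 and Myd88 -0.0555. Some of these settings use fewer arrays or probe sets and others do not, and the causes of the shifts were not tested.

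Leaving out each array in turn gave 1332 to 2270 calls in susceptible rats, 967 to 1661 in resistant rats, 0 to 2 for the difference, 7 to 89 after dosing (0 to 1 of the 6 genes) and 0 to 2 before dosing. Signs turned only among values that did not pass. In resistant rats Ly96 ran from -0.0585 to 0.27, Tlr4 from -0.22 to 0.10 and Tlr2 from -0.14 to 0.0254. For the difference Irak3 ran from -0.16 to 0.0225, after dosing Cd14 from -0.21 to 0.20 and Irak3 from -0.12 to 0.0462, and before dosing Irak3 from -0.0569 to 0.10 and Ly96 from -0.22 to 0.13.

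Whether equal replicate numbers mark the same animal could not be told from the values. The deviations of the 10 same-numbered pairs were correlated at -0.03 to 0.05, and 3 of 10 postdose arrays were closest to their own number. Pairs of unequal numbers in the same sub-group were correlated at -0.07 to 0.06. Neither kind of pair stood out, so these values cannot show or exclude pairing by number. With the replicate block, 1290 probe sets were called in susceptible and 970 in resistant rats, among them 2 and 0 of the 6 genes. Myd88 in resistant rats then had a limma adjusted p = 0.0646. For the comparisons of sub-groups the block joined equal numbers of different rats, so its values there say nothing of pairing. They were 8 probe sets after dosing and 0 before dosing, with 0 of the 6 genes in each. Tlr4 after dosing then had a limma adjusted p = 0.0627. The block changed no other call of the 6 genes.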
